A study of Mus musculus with 130 samples.

Results

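Bmp6 and Bmp2 encode 2 bone morphogenetic protein (BMP) ligands, and their transcripts were followed through mouse liver under 5 diets and in 114 inbred strains. Both were chosen by name and matched to their Ensembl identifiers, as 2 of 35274 genes in the diet tables and 2 of 35711 genes in the strain tables. The liver RNA was that of male mice, 1 sample per animal. One study fed C57BL/6J mice, 3 on each diet, with chow, a feed labelled sufficient in iron (50 ppm), a feed labelled elevated (500 ppm), 2% carbonyl iron (20000 ppm), or the 2% iron diet with cellulose as its fiber source. The labels give no iron content for chow, and the time on each feed is not given in the sources used here. In the strain panel, every mouse was fed chow for 4 weeks and 2% carbonyl iron for 6 weeks, so the panel holds no low-iron mice. Its recombinant inbred families were BXD (56 strains), AXB/BXA (20), BXH (4) and CXB (3), and 31 further strains were classed as other inbred. A strain was represented by 1 mouse, and 129X1/SvJ by 2.

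BMP ligands are secreted as dimers that bind type I and type II serine/threonine kinase receptors, and the receptors phosphorylate SMAD1, SMAD5 and SMAD9. In the liver, BMP6 and BMP2 are made mainly by sinusoidal endothelial cells and act on hepatocytes, where hemojuvelin is a co-receptor and the hormone hepcidin (Hamp) is a main target. Hepcidin limits the entry of iron into plasma, and mice that lack either ligand in these endothelial cells accumulate iron.

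Bmp6 (ENSMUSG00000039004) is a protein-coding gene with 3 annotated transcripts on the + strand of GRCm38 at chr13:38345107-38500302, and Bmp2 (ENSMUSG00000027358) has 1 annotated transcript on the + strand at chr2:133552159-133562885 (GENCODE M21). RefSeq's promoter table held a window for 1 of the 2 genes, Bmp6. That window reaches from 250 bases before to 50 bases after the RefSeq start site, at chr13:38345466-38345765 on the + strand of GRCm38.p6. The GENCODE gene begins upstream of it. Only the Bmp6 window is printed because none was held for Bmp2, and the capitals mark a match to the core of the antioxidant response element.

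Bmp6 promoter: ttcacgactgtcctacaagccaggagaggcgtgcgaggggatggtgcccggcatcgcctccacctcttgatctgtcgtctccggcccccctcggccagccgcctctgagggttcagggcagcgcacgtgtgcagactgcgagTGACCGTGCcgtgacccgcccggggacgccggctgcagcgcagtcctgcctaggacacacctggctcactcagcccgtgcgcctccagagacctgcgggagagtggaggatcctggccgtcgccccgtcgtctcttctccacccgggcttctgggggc

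Searched as TGACNNNGC on both strands, that core had 1 match, TGACCGTGC, at position -108 from the start site, and 12.4% of the 32851 mouse windows of the same length held one. An E-box, CACGTG, lay at -127 and occurred in 7.15% of windows. The short SMAD box CAGAC lay at -119 and occurred in 49.6%, and the SMAD1/5 palindrome GGCGCC, present in 11.9% of windows, was not found in these letters. None of the 3 matches overlapped another. GC content of the window was 69.3%. These matches describe letters only.

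With M for 1000000 counts, libraries held 10.4 to 20.4 M under the 5 diets and 9.41 to 20.6 M in the panel. Counts behind the levels ran from 42 to 453 for Bmp6 and from 153 to 416 for Bmp2 in the diet study, and from 64 to 571 and from 105 to 608 in the panel. The sum of 4 Y-linked genes was 3.94 CPM (45 counts) in the library labelled BXD65 and 118 to 328 CPM in the other panel libraries, so that 1 library went against its labelled sex. Defining markers of hepatocytes, sinusoidal endothelial cells and Kupffer cells had counts in every library.

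Bmp6 rose steeply with 2% iron, while no difference in Bmp2 passed the test. In counts per 1000000 (CPM, scaled with TMM factors), Bmp6 was 5.26, 4.75 and 5.02 in the 3 chow mice and 4.07, 7.64 and 5.72 in the 50 ppm mice. It was 8.61, 13.5 and 8.48 CPM with 500 ppm iron. With 2% iron it reached 25.03, 30.1 and 31.4 CPM, and with 2% iron and cellulose 23.9, 22.2 and 34.9 CPM. Every mouse on a 2% diet lay above every other mouse, the 500 ppm mice all lay above the 50 ppm and chow mice, and the 2 lowest groups overlapped.

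The mean of Bmp6 was 28.9 ± 3.38 CPM with 2% iron and 5.81 ± 1.78 CPM with 50 ppm (SD, n = 3 each). This is a log2 change of 2.31 (SE 0.24, 95% interval 1.80 to 2.82, 4.96-fold, edgeR adjusted p = 1.27e-04). In this contrast 15.7% of the 13560 tested genes passed an adjusted p of 0.05, the threshold for a call, with 8.52% higher and 7.17% lower. The cellulose group, at 27.01 ± 6.87 CPM, gave a log2 change of 2.22 against 50 ppm (SE 0.24, edgeR adjusted p = 6.26e-05), where 29.7% of genes were called (15.4% higher, 14.3% lower). Both contrasts share the 50 ppm mice.

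The order of the Bmp6 means was chow (5.01 ± 0.256 CPM), 50 ppm, 500 ppm (10.2 ± 2.87 CPM), 2% iron with cellulose, and 2% iron. Chow against 50 ppm gave a log2 difference of -0.21 (95% interval -0.78 to 0.35, edgeR adjusted p = 0.855, 0.391% of genes called), which is within the spread of the mice. The step from 50 to 500 ppm was 0.83 on the log2 scale (95% interval 0.31 to 1.35). Its p was 0.00436 before adjustment and 1 after it in edgeR, and 0% of genes were called in that contrast, where 428 had an unadjusted p under 0.05 and DESeq2 called 2. From 500 ppm to the 2% diets Bmp6 rose by 1.39 on the log2 scale with cellulose and by 1.48 without it (edgeR adjusted p = 7.81e-04 and 0.00114, with 25.8% and 11.3% of genes called). The 2 diets with 2% iron did not differ beyond their spread, with cellulose at -0.09 on the log2 scale (95% interval -0.55 to 0.36, edgeR adjusted p = 0.895, 0.0811% of genes called).

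Against chow, Bmp6 was higher by 2.52 on the log2 scale with 2% iron and by 2.43 in the cellulose group (edgeR adjusted p = 4.55e-05 and 1.95e-05, with 22.8% and 35% of genes called). With 500 ppm the log2 difference from chow was 1.04 (edgeR adjusted p = 0.0806, 0.590% of genes called). That last value passed the threshold with DESeq2 (adjusted p = 0.00631) and with no filter on low counts (0.0423). The middle step was smaller without 1 mouse. Replicate 2 of the 500 ppm group had the highest Bmp6 and the deepest library of that group, and without it the log2 difference was 0.56 from 50 ppm (edgeR adjusted p = 1) and 0.77 from chow (0.260), while that from 500 ppm to 2% iron was 1.75 (3.45e-04).

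Bmp2 had no such gradient. It was 21.2, 19.1 and 14.1 CPM with chow, 14.8, 17.9 and 23.1 with 50 ppm, and 24.1, 19.4 and 21.7 with 500 ppm. With 2% iron the mice had 13.6, 24.4 and 24.5 CPM, and in the cellulose group 16.99, 16.2 and 32.04 CPM. All 5 groups overlapped, and the lowest and the highest mouse of the study were both on 2% diets.

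Group means of Bmp2 ordered as chow (18.1 ± 3.63 CPM), 50 ppm (18.6 ± 4.19), 2% iron (20.8 ± 6.28), 500 ppm (21.7 ± 2.34) and 2% iron with cellulose (21.8 ± 8.92), and no neighbours in this order differed beyond their spread. For 2% iron against 50 ppm the log2 change was 0.16 (SE 0.28, 95% interval -0.44 to 0.76, edgeR adjusted p = 0.755), an interval that still allows a change of either sign. Across all 10 pairs of diets edgeR called Bmp2 in 0, and its smallest unadjusted p was 0.344. DESeq2 and limma on TPM also gave no call.

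**Figure D1:**
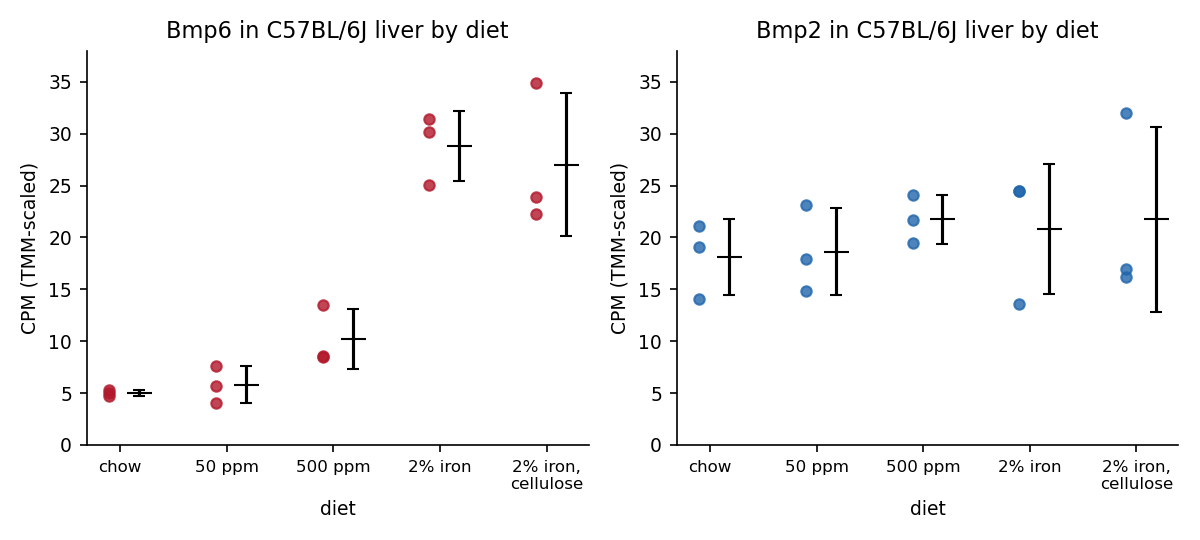
Bmp6 (left) and Bmp2 (right) in CPM on the vertical axes for each C57BL/6J mouse on 5 diets, with dots for mice and bars for the mean ± SD of 3 mice. Bmp6 lies at 22.2 to 34.9 CPM on the 2% diets and at or below 13.5 on the others, whereas the Bmp2 groups overlap.

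Because of these unequal changes the balance of the ligands shifted. Per transcript length, as TPM (transcripts per 1000000 transcripts), Bmp6 averaged 1.41 with chow, 1.94 with 50 ppm and 3.18 with 500 ppm, and Bmp2 averaged 4.98, 5.44 and 6.26 in the same mice. With 2% iron the means were 8.73 TPM for Bmp6 and 6.27 for Bmp2, and in the cellulose group 8.64 and 6.92. The ratio of Bmp6 to Bmp2 TPM was 0.264, 0.249 and 0.352 with chow and 0.278, 0.485 and 0.305 with 50 ppm. It was 0.353, 0.848 and 0.386 with 500 ppm. The 2% iron mice had 1.82, 1.27 and 1.27, and the cellulose mice 1.39, 1.35 and 1.12. Bmp2 was the more abundant transcript in all 9 mice on the lower diets and Bmp6 in all 6 on the 2% diets. The log2 ratio was 0.44 ± 0.23 in the 6 mice on 2% diets and -1.67 ± 0.35 in the 6 mice on 50 ppm and chow (SD). The difference was 2.11, or 4.33-fold (exact two-sided permutation test, p = 0.00216). For 2% iron against 50 ppm alone it was 2.05, with p = 0.1 in the exact test, the smallest that 3 against 3 mice can give.

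In bulk tissue, fewer cells of a type and less RNA per cell cannot be told apart, so markers of the cells that could carry these transcripts were read beside them. The summed level of 12 genes of liver sinusoidal endothelial cells (among them Stab1, Stab2, Kdr and Oit3) was 426.4 to 482.9 CPM with chow, 361.4 to 497.0 with 50 ppm and 431.01 to 453.4 with 500 ppm. It was 531 to 551 CPM with 2% iron and 439 to 681 in the cellulose group. In 2% iron against 50 ppm, 1 of the 12 was called higher (Stab2, a scavenger receptor, log2 change 0.80) and 0 lower. Over all genes 8.52% were higher and 7.17% lower. Stab2 lost its call without replicate 1 of the 50 ppm group (0.69, edgeR adjusted p = 0.0601). In that fit 0 of the 12 were called higher and 1 lower. None of the 12 was at 0 in any library. With all mice kept, the median log2 change of the 12 was 0.25, beside 0.01 over all genes.

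Per 1000 CPM of these endothelial markers, a scale added after seeing the data, Bmp6 was 10.9, 10.6 and 11.8 with chow, 11.3, 17.8 and 11.5 with 50 ppm and 20.0, 30.5 and 18.7 with 500 ppm. It was 47.2, 55.9 and 56.97 with 2% iron and 51.2, 50.7 and 51.2 in the cellulose group. The groups separated as they did in CPM, and the 3 cellulose mice came together. The log2 difference between the 2% diets and the 50 ppm and chow mice was 2.11 on this scale (6 against 6 mice, exact permutation p = 0.00216).

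On the same scale Bmp2 was 43.8, 42.6 and 33.1 with chow, 41.03, 41.6 and 46.5 with 50 ppm and 55.9, 43.8 and 47.9 with 500 ppm. It was 25.6, 45.4 and 44.4 with 2% iron and 36.4, 36.98 and 47.1 in the cellulose group. The log2 difference for Bmp2 was -0.10 (6 against 6 mice, exact permutation p = 0.567). Replicate 3 of the cellulose group had the highest Bmp6, the highest Bmp2 and the highest endothelial sum (681 CPM) of its group. Without that mouse the Bmp2 difference of the cellulose diet from 50 ppm changed sign, to -0.18 on the log2 scale (edgeR adjusted p = 0.643), while that of Bmp6 was 1.98 (1.68e-04).

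**Figure D2:**
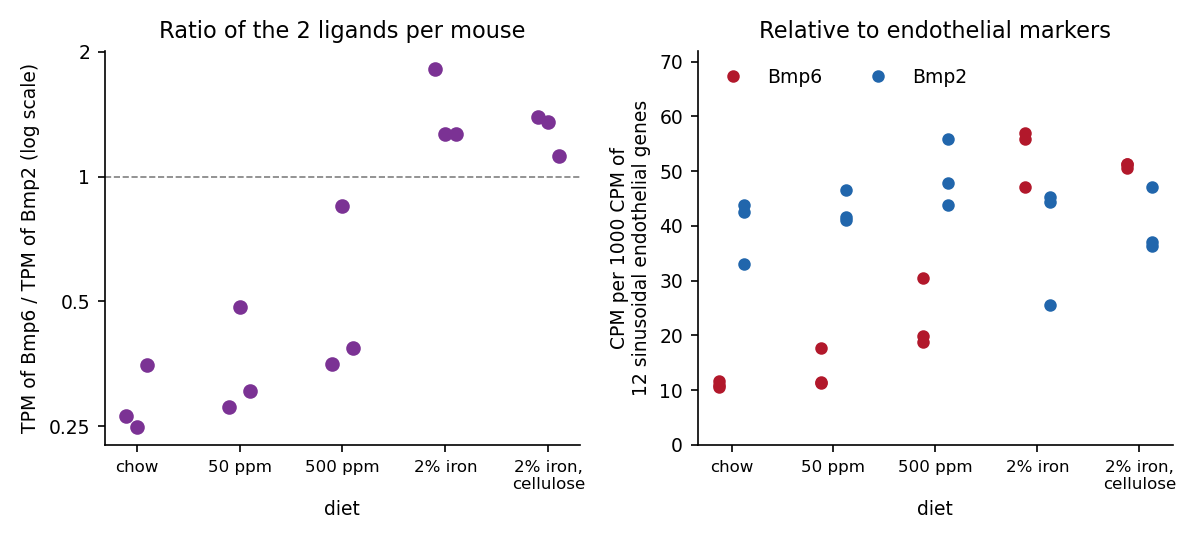
Left, the ratio of Bmp6 TPM to Bmp2 TPM on a log axis, with 1 dot per mouse and a dashed line at 1. Right, CPM of Bmp6 (red) and Bmp2 (blue) per 1000 CPM of 12 sinusoidal endothelial genes, with 1 dot per mouse. All 6 mice on 2% diets have a ratio of 1.12 or more and the other 9 one of 0.848 or less, and Bmp6 keeps its separation relative to the endothelial genes.

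Markers of other cells moved with the diet. All 8 Kupffer cell markers (resident macrophages of the liver) were called higher in 2% iron against 50 ppm. Of all genes, 8.52% were higher and 7.17% lower in that contrast. The sum of the 8 was 542 to 575 CPM against 128 to 220 CPM, with 518 to 820 CPM in the cellulose mice. In the 500 ppm group the sum was 123, 246 and 151 CPM, highest in replicate 2. Of 5 tested erythroid genes 4 were called higher and 1 lower, and their sum was 320.1 to 475.7 CPM against 68.0 to 109 CPM. Of 6 general endothelial genes 3 were called higher, and 2 or 3 with 1 mouse left out. The part of these cells in the Bmp6 difference was not tested.

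The end of Bmp6 overlaps that of Txndc5, a protein disulfide isomerase gene on the opposite strand, by 224 bases (chr13:38500079-38500302). The library kit keeps strand, but the strand used in counting is not given in the sources used here. Txndc5 fell by 0.49 on the log2 scale in 2% iron against 50 ppm (edgeR adjusted p = 0.0114) and differed by -0.02 in the cellulose mice (0.918). The part of the overlap in the Bmp6 counts was not tested.

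Genes around the ligands were taken by role from lists chosen with earlier results in view. Among 13 other ligands of the family, 0 were called higher and 1 lower in 2% iron against 50 ppm. The shares over all genes were 8.52% and 7.17%, and the median log2 change of the 13 was -0.01. The one called was Bmp7, at -1.44 (SE 0.45, edgeR adjusted p = 0.0446), and it lost its call when any 1 of the 6 mice was left out. Bmp5 (0.14), Bmp10 (0.71), Gdf2, which encodes BMP9 (0.33), and Bmp4 (-0.74) did not pass the test. In the cellulose contrast 4 of the 13 were called higher and 3 lower, where 15.4% of all genes were higher and 14.3% lower. Against chow, the same 2% iron mice had 4 of the 13 called higher and 2 lower, where 11.9% of all genes were higher and 10.9% lower. Those higher were Bmp10 (1.10, SE 0.29, edgeR adjusted p = 0.0142), Gdf2 (0.61), Inhba, an activin subunit (0.78), and Tgfb1 (1.07), and those lower were Bmp7 (-1.63) and Inhbb (-2.19). Bmp10 averaged 3.73 ± 0.391 CPM with chow, 4.86 ± 2.12 with 50 ppm and 8.02 ± 2.77 with 2% iron (SD, n = 3 each). Its call against chow was lost without replicate 3 of the 2% iron group (0.82, edgeR adjusted p = 0.0768) or replicate 2 of the chow group (1.03, 0.0566). Bmp7 lost its call against chow without replicate 2 of the 2% iron group or replicate 3 of the chow group. Inhbb, at 0.563 CPM with 2% iron and 2.65 CPM with chow, lost it without replicate 1, 2 or 3 of the 2% iron group. It also lost it without replicate 1 or 2 of the chow group.

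Calls among receptors and co-receptors went both ways. Of 13 tested (14 listed) 2 were called higher and 2 lower in 2% iron against 50 ppm. The shares over all genes were 8.52% higher and 7.17% lower. Acvrl1, the endothelial type I receptor ALK1, rose by 1.30 on the log2 scale (SE 0.21, edgeR adjusted p = 0.00166), and Fkbp1a, which binds type I receptors in their resting state, rose by 0.41 (SE 0.11, 0.0245). Acvr2b, a type II receptor, fell by 1.18 (SE 0.22, 0.0038), and Tmprss6, a hepatocyte protease that cleaves hemojuvelin, fell by 0.33 (SE 0.09, 0.0249). The receptor and co-receptor genes Acvr1 (-0.09), Bmpr1a (-0.05), Bmpr2 (-0.07), Hjv (0.12), Hfe (0.15) and Tfr2 (-0.18) did not pass the test. Leaving out 1 mouse left 1 or 2 calls in each direction, with Tmprss6 and Fkbp1a each lost in 4 of the 6 cases.

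Of the 4 signal transducers 1 was called, Smad9, a receptor-activated SMAD, at 1.66 (SE 0.29, edgeR adjusted p = 0.00257). Of all genes, 15.7% were called in 2% iron against 50 ppm. Among the extracellular antagonists reported here, Fst (follistatin) rose by 1.94 (SE 0.37) and Bmper by 2.96 (SE 0.85), with edgeR adjusted p of 0.00431 and 0.032. Bmper lost its call in 5 of 6 leave-one-out fits, and Chrd (-0.03), Fstl1 (0.18) and Twsg1 (-0.20) did not pass.

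BMP target genes moved in the direction of Bmp6. Of 10 targets 8 were called higher and 0 lower in 2% iron against 50 ppm, with a median log2 change of 1.51 beside 0.01 for all genes. The shares over all genes were 8.52% higher and 7.17% lower. Id4 rose by 3.73 and Id1 by 2.67 (inhibitors of DNA binding), and Smad7 rose by 2.00 and Smad6 by 0.80 (inhibitory SMADs). Hamp rose by 1.40, its paralog Hamp2 by 2.25, Atoh8, a transcription factor, by 1.61 and Bambi, a decoy receptor, by 0.81. Id3 (1.14) and Id2 (0.82) did not pass the test. Hamp and Hamp2 are near-identical copies, so reads may be split between them. The count of targets called was 5 to 7 with 1 mouse left out, with Hamp2, Bambi and Id1 the calls lost, and it was 5 without replicate 3 of the 50 ppm group. In the cellulose contrast 8 of 10 were also called higher, with a median of 1.43, where 15.4% of all genes were higher. With 500 ppm against 50 ppm edgeR called 0 of the 10, with a median log2 change of 0.46 and 5 at an unadjusted p under 0.05.

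**Figure D3:**
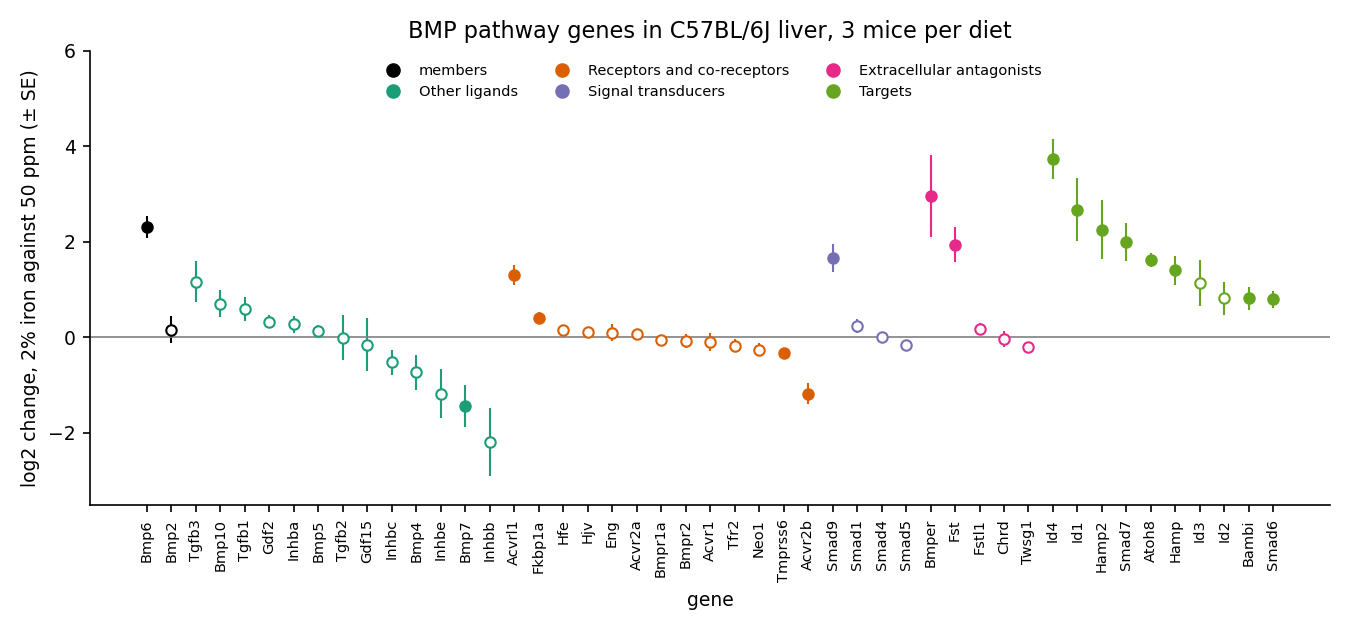
Log2 change of the BMP pathway genes reported here in 2% iron against 50 ppm (vertical axis, dots with bars of ± 1 SE, 3 mice per diet), grouped by role along the horizontal axis, with filled dots for an edgeR adjusted p under 0.05. Bmp6 (2.31) is filled and Bmp2 (0.16) is open, and 8 of the 10 targets are filled above 0.

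Across the 114 strains on 2% iron, Bmp6 ranged 7.69-fold and Bmp2 5.16-fold. Bmp6 ran from 5.79 CPM in PL/J through a median of 23.9 CPM to 44.5 CPM in C58/J. Bmp2 ran from 9.50 CPM, again in PL/J, through a median of 25.3 CPM to 49.02 CPM in BXD22/TyJ. Each strain value but one comes from a single mouse, so strains next to each other in this order cannot be told apart. The 2 mice of 129X1/SvJ had 27.4 and 28.4 CPM of Bmp6 and 22.7 and 22.3 CPM of Bmp2.

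On the log2 scale the SD between strains was 0.523 for Bmp6 and 0.455 for Bmp2. Within both 2% groups of the diet study, which hold 1 strain, the SD was 0.276 for Bmp6 and 0.520 for Bmp2 (6 mice). Within all 5 diet groups it was 0.319 and 0.390. The strain SD of Bmp6 thus lay above both same-strain values, and that of Bmp2 between them. The 2 studies were counted in separate tables, and this is given as a description.

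The lowest Bmp6 levels after PL/J were in BXD28/TyJ (7.31 CPM), BXD34/TyJ (8.60), BXD31/TyJ (10.1) and BALB/cJ (10.2). The highest after C58/J were in BUB/BnJ (39.2), NZW/LacJ (37.6), BXD87/RwwJ (36.4) and AXB19/PgnJ (36.1). For Bmp2 the lowest after PL/J were BXD28/TyJ (10.2), BXD12/TyJ (11.3), BXD14/TyJ (12.5) and BXD29/Ty (12.9), and the highest after BXD22/TyJ were BXD48/RwwJ (40.99), BXD67/RwwJ (40.4), BXD6/TyJ (39.5) and BXD38/TyJ (39.4). The same 2 strains thus ended both orders at the low side. Of the 10 lowest strains of each ligand 6 were shared, and of the 10 highest 2 were shared. TPM of Bmp6 exceeded that of Bmp2 in 59 of the 114 strains.

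Some strains parted the ligands. BALB/cJ and its substrain BALB/cByJ had low Bmp6 (10.2 and 12.7 CPM) and high Bmp2 (35.6 and 33.2 CPM), with endothelial sums of 546 and 614 CPM, at or above the panel median of 546. BXD48/RwwJ had 24.5 CPM of Bmp6 and 40.99 of Bmp2, and BXD48a/RwwJ 32.3 and 21.3. In AXB19/PgnJ and AXB19a/PgnJ Bmp6 was 36.1 and 32.9 CPM and Bmp2 30.1 and 34.9, while AXB19b/PgnJ had 16.3 and 14.4, the lowest of their family for both, with an endothelial sum of 455 CPM against 727 and 845.

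The parents of the recombinant families, 1 mouse each, lay further apart in Bmp6 than in Bmp2. C57BL/6J had 36.1 CPM of Bmp6, DBA/2J 15.3, A/J 15.2 and C3H/HeJ 23.9. Their Bmp2 levels were 29.01, 19.7, 24.9 and 23.3 CPM. Of 56 BXD strains 47 lay between C57BL/6J and DBA/2J in Bmp6, 8 below both and 1 above both, and in Bmp2 21 lay between, 15 below and 20 above. Of 20 AXB/BXA strains 19 lay between A/J and C57BL/6J in Bmp6 and 2 in Bmp2. Ranked upward by Bmp6 among the 115 panel mice, A/J had rank 15, DBA/2J rank 16 and C57BL/6J rank 110. Most of the whole panel thus lay between these parents in Bmp6. By Bmp2 their ranks were 57, 22 and 73, a narrower interval. With 1 mouse per parent and per strain, these counts carry no test.

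Family medians were close. Bmp6 had a median of 23.98 CPM in BXD, 25.4 in AXB/BXA and 23.9 in the other inbred strains, and Bmp2 one of 24.3, 29.1 and 24.8. None of the 3 contrasts between these families called either ligand. BXD against AXB/BXA gave -0.14 for Bmp6 (95% interval -0.39 to 0.11, edgeR adjusted p = 0.555) and -0.11 for Bmp2 (-0.33 to 0.12, 0.632), where 8.14% of 15686 genes were called. BXD against the other inbred strains gave -0.01 and 0.01 (0.950 and 0.974, 19% of genes called), and AXB/BXA against them 0.13 and 0.12 (both 0.560, 17.6%). The smallest unadjusted p of these was 0.261, and neither DESeq2 nor limma on TPM called either gene.

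**Figure D4:**
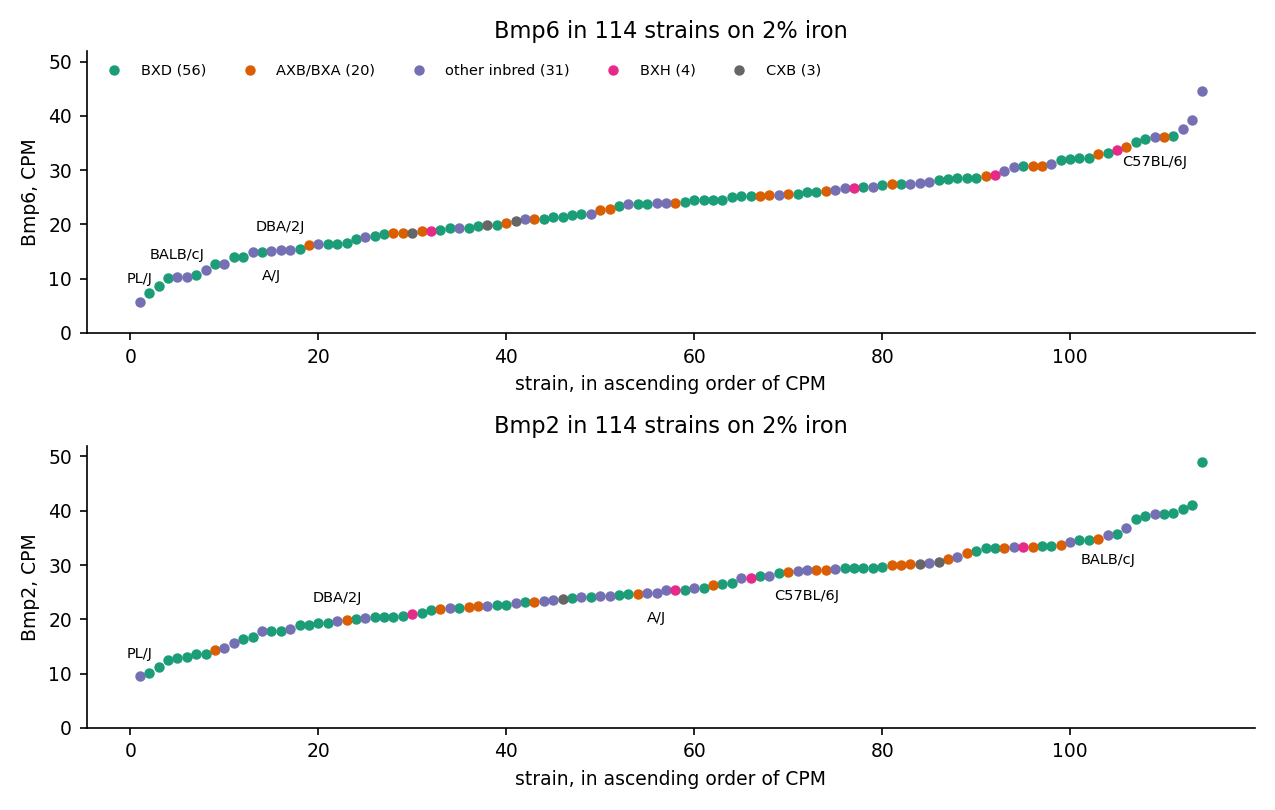
CPM of Bmp6 (top) and Bmp2 (bottom) on the vertical axes in 114 strains on 2% iron, each strain 1 dot in ascending order along the horizontal axis and coloured by family, with 5 strains named. PL/J is lowest in both, and BALB/cJ lies near the bottom for Bmp6 (10.2 CPM) and near the top for Bmp2 (35.6 CPM).

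The ligands varied together across strains. On log2 CPM their Pearson r was 0.614 and Spearman's rho 0.511 over 114 strains (permutation p = 1e-05 each, the smallest that 100000 resamples can give, and adjusted p = 3.34e-04 over the 15685 genes related to Bmp6). Leaving out the 2 strains most distant from either median, BXD28/TyJ and PL/J, gave r = 0.532. Within families r was 0.658 in BXD, 0.396 in AXB/BXA (permutation p = 0.0818) and 0.617 in the other inbred strains. Both genes come from the same libraries. The relation with log2 library total was r = 0.156 for Bmp6 (permutation p = 0.0970, rho 0.207, p = 0.0270) and r = 0.132 for Bmp2 (p = 0.160).

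Both tracked endothelial markers. With the summed sinusoidal endothelial markers Bmp6 had r = 0.799 and rho = 0.754, and Bmp2 r = 0.707 and rho = 0.613 (permutation p = 1e-05 each, adjusted p = 3.20e-05 over 16 relations of a ligand with a marker list). Without the 2 farthest strains r was 0.768 and 0.661. Within BXD, AXB/BXA and the other inbred strains r was 0.876, 0.678 and 0.792 for Bmp6 and 0.736, 0.559 and 0.759 for Bmp2. The sum ran from 255 to 867 CPM in the panel. Of the 12 markers 11 were positively related to each ligand at an adjusted p under 0.05, where 9.69% of all genes were for Bmp6 and 4.77% for Bmp2. Median r was 0.663 and 0.624 for the list and -0.02 and -0.01 over all genes.

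Kupffer cell markers were related to Bmp6 in 7 of 8 cases (median r 0.399) and to Bmp2 in 1 of 8 (median 0.169). The sum of those markers had r = 0.461 and rho = 0.485 with Bmp6 (adjusted permutation p = 3.20e-05 for both), and r = 0.209 and rho = 0.186 with Bmp2 (0.0402 and 0.0766). The difference between the ligands was not tested. Of 8 stellate cell markers 5 were positively related to Bmp6 (median r 0.301) and 2 to Bmp2 (median 0.127). Over all genes 9.69% and 4.77% were. The sum of the 8 had r = 0.373 and rho = 0.392 with Bmp6 (adjusted permutation p = 1.87e-04 for r). With Bmp2 it had r = 0.291 and rho = 0.273 (0.00389). Within BXD, AXB/BXA and the other inbred strains its r with Bmp2 was 0.428, 0.239 and 0.0433. Of 6 lymphocyte markers 2 were positively related to Bmp6 and 0 to Bmp2. The sum of the 6 had r = 0.273 and rho = 0.299 with Bmp6 (adjusted permutation p = 0.0066 for r) and r = -0.06 with Bmp2 (0.697). The sum of general endothelial genes had r = 0.625 with Bmp6 and 0.438 with Bmp2 (adjusted permutation p = 3.20e-05 each). The part of these cells in the strain differences was not tested. Hepatocyte markers were related to neither by this test, with r of -0.01 and -0.00238 for their sum (permutation p = 0.909 and 0.980).

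**Figure D5:**
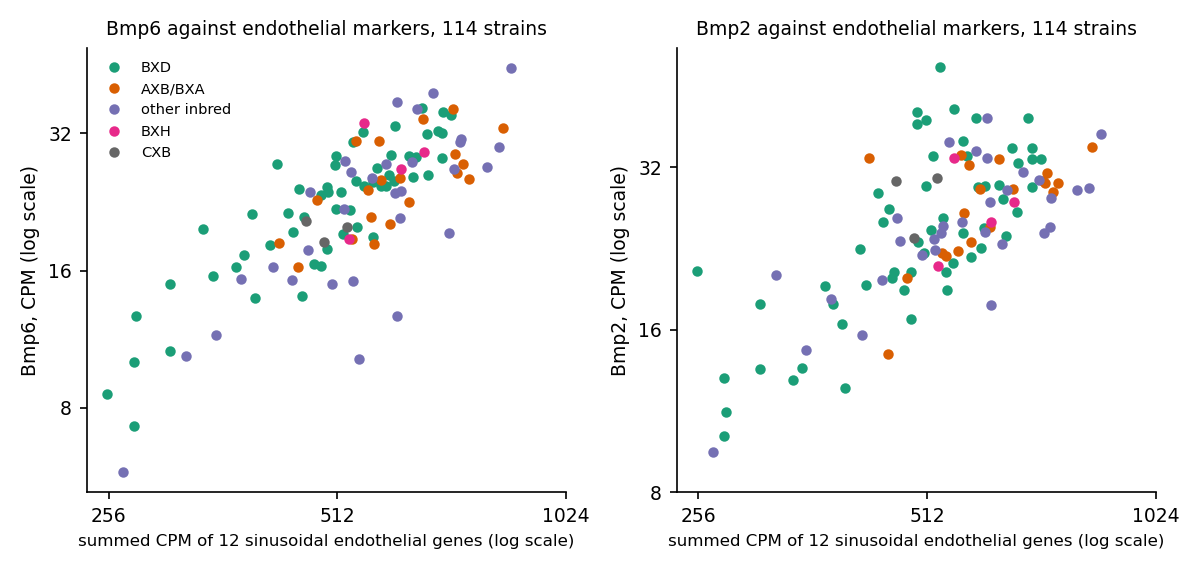
Bmp6 (left) and Bmp2 (right) in CPM against the summed CPM of 12 sinusoidal endothelial genes in 114 strains on 2% iron, both axes on log scales, with 1 dot per strain coloured by family. Both rise with the sum (r = 0.799 and 0.707), and 2 purple dots well below the cloud of Bmp6 are BALB/cJ and BALB/cByJ.

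The genes most like each ligand across strains were ranked by rho, leaving out genes whose mean was under 1 CPM. For Bmp6 they were Dnase1l3 (r = 0.832, rho = 0.788), Rasgrp3 (0.791, 0.772), Oit3 (0.828, 0.763), Akr1b8 (0.776, 0.763) and Cdh5 (0.768, 0.757). Dnase1l3 and Oit3 are on the sinusoidal list and Cdh5, which encodes VE-cadherin, on the general endothelial one. For Bmp2 they were Plxnc1 (0.787, 0.748), Adgrf5 (0.785, 0.744), Flt4 (0.778, 0.740), Ptprb (0.784, 0.730) and Pde2a (0.779, 0.711), with Flt4, the VEGF-C receptor, on the sinusoidal list. All 10 were chosen by rho in these same strains, so their permutation p of 1e-05 for r and rho adds no support. Families are subsets of those strains, and r within them ran from 0.527 (Cdh5 in AXB/BXA) to 0.885 (Cdh5 in BXD).

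At the other end Bmp6 had its lowest rho with Mrpl43 (-0.514), Psmb1 (-0.481) and Mrpl11 (-0.472), and r of -0.399, -0.411 and -0.502. Bmp2 had it with Msra (-0.451), Pja1 (-0.443) and Prdx5 (-0.440), and r of -0.465, -0.431 and -0.479. Of the 50 genes of highest rho 14 were shared by the ligands. None of those of Bmp6 lay on its own chromosome 13, and 5 of those of Bmp2 lay on chromosome 2. The share of all genes on these chromosomes was not computed, so the counts show neither an excess nor a lack. In all, 14.9% of genes were related to Bmp6 (1520 positively, 814 or 5.19% negatively) and 7.31% to Bmp2 (748 positively, 398 or 2.54% negatively), and 505 of the positive genes were common to the lists of 1520 and 748. Without the library labelled BXD65 the totals were 2256 and 1122, against 2334 and 1146 with it. Within the 20 AXB/BXA strains the permutation test called 0 genes for either, with 789 for Bmp6 at an unadjusted p under 0.05 and fewer for Bmp2.

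Among strains that all ate 2% iron, some BMP targets were related to Bmp6 and none passed the test for Bmp2. Hamp had r = 0.0223 with Bmp6 (rho 0.0105, permutation p = 0.814 for r) and r = -0.00648 with Bmp2 (rho -0.0879, p = 0.946). By r, 2 of 10 targets were positively related to Bmp6, Smad6 (r = 0.349, rho = 0.419, adjusted permutation p = 0.00171) and Id4 (r = 0.311, rho = 0.330, 0.00921). Over all genes 9.69% were. The median r of the 10 targets with Bmp6 was 0.160, beside -0.0185 over all genes. For Smad6 r was 0.434 in BXD, 0.2498 in AXB/BXA and 0.2499 in the other inbred strains, and 0.356 without the 2 farthest strains. Id1 did not pass by r (0.236, adjusted permutation p = 0.0647) and passed by rho over the same 114 strains (0.307, 0.00948). The same held for Smad7, with r = 0.215 (adjusted permutation p = 0.103) and rho = 0.257 (0.0403). Without the 2 farthest strains both also passed by r, at 0.293 and 0.255 (0.0159 and 0.0437). For Atoh8 r was 0.164 (adjusted permutation p = 0.241) and rho 0.215 (0.0928). On log2(TPM + 1), where more genes in all were related to Bmp6 (4100 against 2334), r was 0.310 for Id1, 0.251 for Smad7 and 0.261 for Atoh8, and all 3 passed (adjusted permutation p = 0.0053, 0.0308 and 0.0249). The permutation test called 0 of the 10 targets for Bmp2, whose median r was -0.09, with 1 at an unadjusted p under 0.05. Whether the ligands differ in these relations was not tested.

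Of the receptors, Eng, the endothelial co-receptor endoglin, had r = 0.675 with Bmp6 and 0.694 with Bmp2, and Bmpr2 0.470 and 0.541 (adjusted permutation p = 3.34e-04 for Bmp6 and 6.94e-04 for Bmp2). Acvrl1 was related to Bmp6 (0.493, 3.34e-04), and its r with Bmp2 was 0.207 (0.157). Among other ligands 5 of 13 were positively related to Bmp6, led by Tgfb1 (0.4996), Bmp10 (0.397) and Gdf2 (0.377), and 3 of 13 to Bmp2, led by Inhbb (0.367). Over all genes 9.69% and 4.77% were. Txndc5, the overlapping neighbour, had r = -0.320 with Bmp6 (adjusted permutation p = 0.00851).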

How the data were processed

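Gene tables hold expected counts and TPM, which the authors deposited for each mouse. The counts are not normalized, judged from column sums that differ. Per the submitters' processing notes, kallisto 0.46 and mm10 were used, with no role or setting given. Expected counts were rounded to whole numbers. Symbols and positions came from GENCODE M21. The labels name separate mice but give no batch, and no 2 libraries were identical.

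The 15 diet mice were fitted together with edgeR 4.0.16 in R 4.3.3 (TMM factors, filterByExpr, quasi-likelihood test, two-sided, Benjamini-Hochberg over 13560 genes). All 10 pairs of diets share that fit, and several share control mice. Strain families were fitted likewise over 15686 genes with strain as the replicate. Strain relations used log2 CPM (prior count 2, the 2 mice of 129X1/SvJ averaged) and 100000 resamples, adjusted over all genes for each ligand. Separate clusters (Ashman D above 3 with a BIC gain over 10) were sought for the ligands and the genes named for highest or lowest rho. Hamp, Id1, Smad6, Smad7, Atoh8 and Txndc5 were checked too. None of these fell into separate clusters, and the other genes named in the strain relations were not checked. Python 3.11.15 with scipy 1.17.1 ran the permutation tests.

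The ligands, gene lists and markers were chosen with earlier results of these data known. Named genes are the ligands, genes of the pathway and marker lists, and for each ligand the 5 genes of highest and 3 of lowest rho. Strains named are the 5 highest and lowest, parents, substrains and 129X1/SvJ. Txndc5 was named because it overlaps Bmp6. Some genes of the lists are not reported here.

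On simulated counts for 2% iron against 50 ppm (13560 genes), 65% of 2-fold and 92% of 4-fold changes were recovered with 8 false calls. Alternatives were RLE factors, other filters, the compared groups alone, DESeq2 1.42.0, limma 3.58.1 on log2(TPM + 1) and log2(TPM + 0.1), each diet mouse left out, another prior count, family centring, substrains averaged, and the library labelled BXD65 left out. The endothelial scale and the left-out mice for gene lists were added after seeing the data.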

Additional observations from a re-analysis of the deposited data

How the results depend on the processing

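Bmp6 stayed called and higher under every alternative run in the 6 contrasts of a 2% diet with 50 ppm, 500 ppm or chow, and Bmp2 stayed uncalled in all 10. Between 500 ppm and chow, Bmp6 passed the threshold with no filter (1.05, adjusted p = 0.0423) and with DESeq2 (1.04, 0.00631). Differences near 0 changed sign without a call. With no filter Bmp2 in cellulose against 500 ppm was -5.86e-04. BXD against other inbred strains on log2(TPM + 1) and log2(TPM + 0.1) gave -0.00828 and -0.0111 for Bmp2 and 0.00138 and 0.00673 for Bmp6. Across strains r changed sign for Bmp6 with Hamp after family centring (-0.00764) and, on log2(TPM + 1), for Bmp2 with Hamp (0.0788), Id1 (0.00951) and Atoh8 (0.0175). TPM values were not rescaled, and on log2(TPM + 0.1) the median of all genes shifted by up to 0.20 (cellulose against chow).

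With 1 mouse left out, Bmp2 ran from -0.18 to 0.41 for cellulose against 50 ppm, -0.19 to 0.16 for 2% iron against 500 ppm, -0.39 to 0.18 for cellulose against 500 ppm, -0.12 to 0.44 for cellulose against chow, -0.19 to 0.14 for chow against 50 ppm and -0.32 to 0.24 for cellulose against 2% iron. Bmp6 ran from -0.41 to 0.0260 for chow against 50 ppm and -0.32 to 0.0266 for cellulose against 2% iron. Bmp6 in 2% iron against 50 ppm stayed at 2.11 to 2.55, and the 6 against 6 ratio at 2.03 to 2.24.

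Counts of genes called moved more. Leaving out 1 mouse gave 1003 to 1640 for 2% iron against 50 ppm, 788 to 2204 for 2% iron against 500 ppm, 2143 to 3989 for cellulose against 500 ppm, 15 to 96 for 500 ppm against chow, 4 to 62 for chow against 50 ppm and 0 to 212 for cellulose against 2% iron. On log2(TPM + 1) and log2(TPM + 0.1) limma called 1190 and 1093 for 2% iron against 50 ppm, 2643 and 2466 for cellulose against 50 ppm, 895 and 789 for 2% iron against 500 ppm, 2236 and 2062 for cellulose against 500 ppm, 1921 and 1928 for 2% iron against chow, 31 and 16 for 500 ppm against chow, and 14 and 19 for chow against 50 ppm. With 0.1 it called 1 for 500 ppm against 50 ppm. Family counts were 729 and 776 for BXD against AXB/BXA, 1907 and 1882 for BXD against other inbred, and 1537 and 1548 for AXB/BXA against other inbred (1538 in a fit of those 2 alone). Fits of 2 diets alone gave 924 for 2% iron against 500 ppm, 2222 for cellulose against 500 ppm, 24 for 500 ppm against chow, 26 for chow against 50 ppm and 23 for cellulose against 2% iron. DESeq2 gave 2 for 500 ppm against 50 ppm, 278 for 500 ppm against chow, 147 for chow against 50 ppm and 224 for cellulose against 2% iron, where no filter gave 51 and a minimum of 10 counts 26. On log2(TPM + 1) 4100 genes were related to Bmp6 and 4129 to Bmp2. Apart from fits with fewer mice or genes, the cause was not tested.

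No paired analysis was possible because the labels give no replicate numbers. Low Bmp6 counts on the lower diets, 3 mice per diet and 1 mouse per strain limit the precision.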

Other observations

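Targets of NRF2, the transcription factor that binds the antioxidant response element, were read in the same mice. Of 16 listed genes 6 were called higher and 0 lower in 2% iron against 50 ppm by edgeR. Over all genes 8.52% were higher and 7.17% lower. The median log2 change of the list was 0.75 beside 0.01 for all genes. The 6 listed genes called were Hmox1 (2.36), which encodes heme oxygenase 1, Gstm3 (1.59), Nqo1 (1.46), Ftl1 (1.32), which encodes ferritin light chain, Srxn1 (0.76) and Gstm1 (0.56). With 1 mouse left out the count was 4 to 7. In the cellulose contrast 10 of 16 were called higher, with a median of 1.13, where 15.4% of all genes were higher. Against chow, where 11.9% of all genes were higher and 10.9% lower, the list was divided. Of the 16, 4 were called higher in 2% iron (Hmox1, Ftl1, Srxn1 and G6pdx, at 2.15, 1.04, 0.55 and 1.65) and 1 lower (Gsta2, -2.45), with a median log2 change of -0.15, and 2 or 3 were higher with 1 mouse left out. Across strains 2 of the 16 were positively related to Bmp6 and 1 to Bmp2, with median r of 0.00432 and 0.0238. Over all genes 9.69% and 4.77% were.

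Erythroid genes moved against Bmp2 across strains. Their sum had r = -0.259 and rho = -0.217 with Bmp2 (adjusted permutation p = 0.00964 and 0.0384), and r was -0.265, -0.350 and -0.161 in BXD, AXB/BXA and the other inbred strains. With Bmp6 r was 0.0416. Of the 6 erythroid genes 1 was called, negatively, for Bmp2, as were 2.54% of all genes.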
